A study of Mus musculus with 49 samples.

Results

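The MHC class I presentation machinery was followed here as 9 named genes of 55487 in a mouse RNA-seq count table: the heavy chains H2-K1 and H2-D1, the light chain B2m, the peptide transporter Tap1 and Tap2, the loading factor Tapbp, the immunoproteasome subunits Psmb8 and Psmb9, and the regulator Nlrc5. The list was given by name and its rule holds no measured value, but it was chosen with earlier results of these data known. All 9 genes were matched by symbol. The series profiled tumor-bearing HuHER2 mice, which are transgenic and develop mammary tumors. Mice were palpated from 7 months of age and, once a tumor was measurable, received 1 intravenous injection of BP, an iron oxide nanoparticle preparation dosed at 5 mg Fe per mouse, or of PBS, the vehicle. In the BP group, 2 fractions were taken: NA libraries, from the cells that a magnet retained after an organ was digested, and bulk libraries, from the whole organ. PBS mice gave bulk libraries only.

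There were 49 libraries in 17 groups from 6 mice, 3 mice per treatment. BP NA libraries came from tumor, spleen, liver and bone marrow (n = 3 each) and from 1 lymph node. BP bulk and PBS bulk libraries came from those 5 organs and from lung (n = 3 each). All groups carried the HuHER2 transgene and a tumor; its promoter and the strain are not given in the sources used here. The design text names day 7 for collection and the treatment protocol names day 31. Organs of 1 mouse are not independent, and NA and BP bulk libraries with the same number came from the same mouse.

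Class I molecules show peptides made inside a cell to CD8 T cells. Proteasomes cut cytosolic proteins, the TAP transporter carries the peptides into the endoplasmic reticulum, and tapasin holds empty heavy chains close to TAP until a peptide is bound. Interferon gamma induces the whole set, exchanges the catalytic subunits of the proteasome for Psmb8, Psmb9 and Psmb10, and acts on heavy chain promoters through NF-kB sites, an interferon-stimulated response element and the SXY module used by NLRC5. B2m and heavy chains are made by almost all nucleated cells, with lymphoid cells at the high end.

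The promoter windows of H2-K1, H2-D1 and B2m are printed because these genes code for the presented molecule itself and because the heavy chain windows share most of their letters. They come from RefSeq (GRCm38.p6) and cover 250 bases before to 50 bases after a transcript start, 5′ to 3′ on the gene's strand. H2-K1 lies at chr17:34000298-34000597 on the minus strand, H2-D1 at chr17:35262844-35263143 on the plus strand and B2m at chr2:122147437-122147736 on the plus strand. Capitals mark GGGGATTCC, an NF-kB type motif, and matches on either strand to AANNGAAA or GAAANNGAA, cores of interferon regulatory factor motifs; these overlap in B2m.
H2-K1: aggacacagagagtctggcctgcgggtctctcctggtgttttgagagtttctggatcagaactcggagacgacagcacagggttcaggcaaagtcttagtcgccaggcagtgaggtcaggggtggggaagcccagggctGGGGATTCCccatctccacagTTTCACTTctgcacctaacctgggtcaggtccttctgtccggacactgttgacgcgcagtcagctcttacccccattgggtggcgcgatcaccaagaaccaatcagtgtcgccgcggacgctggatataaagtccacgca
H2-D1: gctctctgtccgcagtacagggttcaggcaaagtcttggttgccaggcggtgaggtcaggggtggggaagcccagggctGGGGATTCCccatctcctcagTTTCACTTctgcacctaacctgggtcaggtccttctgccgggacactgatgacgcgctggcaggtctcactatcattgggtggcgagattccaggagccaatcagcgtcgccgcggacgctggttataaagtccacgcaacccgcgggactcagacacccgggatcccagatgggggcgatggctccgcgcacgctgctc
B2m: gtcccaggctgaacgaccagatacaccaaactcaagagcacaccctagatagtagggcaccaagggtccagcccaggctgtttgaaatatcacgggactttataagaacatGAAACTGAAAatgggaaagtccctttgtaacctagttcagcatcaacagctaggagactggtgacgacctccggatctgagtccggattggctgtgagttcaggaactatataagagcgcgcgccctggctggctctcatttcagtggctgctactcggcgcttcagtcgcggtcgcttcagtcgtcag

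Over 228 aligned positions, the H2-K1 and H2-D1 windows were identical at 206 (90.4%), with a longest shared run of 47 bases that takes in GGGGATTCC. Of 32851 promoter windows of the same length, 0.25% held GGGGATTCC, 23.9% AANNGAAA and 8.56% GAAANNGAA; AANNGAAA was added to the search after the sequences were seen. CCAAT, left in lower case, was found in the windows of H2-K1, H2-D1, B2m, Tapbp, Tap1 and Psmb9 and in 37.4% of all windows. TTCNNNGAA, a STAT type motif, was found in the Psmb8 window and in 8.3% of all windows. A match is a string of letters and not a binding site. The windows of Tap1 and Psmb9 overlap by 275 bases, since their starts lie 226 bases apart on opposite strands. RefSeq windows were matched for 7 of the 9 genes, and Tap2 and Nlrc5 are named only.

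In GRCm38 (GENCODE M21), 7 of the 9 genes lie in the MHC on chromosome 17. From low to high coordinates these are Tapbp (ENSMUSG00000024308, 33915899-33929292, plus strand), H2-K1 (ENSMUSG00000061232, 33996017-34000347, minus), Psmb9 (ENSMUSG00000096727, 34181987-34187764, minus), Tap1 (ENSMUSG00000037321, 34187553-34197225, plus), Psmb8 (ENSMUSG00000024338, 34197721-34201454, plus), Tap2 (ENSMUSG00000024339, 34203527-34216321, plus) and H2-D1 (ENSMUSG00000073411, 35262730-35267499, plus). B2m (ENSMUSG00000060802) is on chromosome 2 at 122147686-122153083 and Nlrc5 (ENSMUSG00000074151) on chromosome 8 at 94434356-94527272, both on the plus strand. The heavy chains share sequence with each other and with H2-Q and H2-T genes: 8.79% of the 50-base windows of H2-K1 and 14.32% of those of H2-D1 occur in another transcript, so their counts are estimates that depend on how shared reads were split. The mouse reference carries 1 H2 haplotype, and how alleles of another haplotype would be counted was not tested. Tap1 and Psmb9 exons overlap by 212 bases on opposite strands, and 29.02%, 18.46% and 14.73% of the exon bases of Tapbp, Tap2 and Psmb8 overlap another annotated gene. The strand setting of the counting is not given in the sources used here.

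Library totals ran between 9362264 and 19734849 estimated counts, and a count of 3 was worth 0.152 to 0.32 CPM, the unit of all levels below, in which counts are set against library size with TMM scaling over the 49 libraries. All 9 genes were above that floor in every library. Organ markers were high in their own organs (hepatocyte sum in liver bulk, leukocyte sum in lymph node, spleen and marrow), and 5 bulk libraries stood apart. The tumor library of BP mouse 1 had 19.45% mitochondrial counts and 872 CPM of the adipocyte gene Adipoq, and the lymph node library of PBS mouse 2 had 28.62% and 656 CPM. The tumor library of BP mouse 2 had 2637 CPM summed over 4 skeletal muscle markers, against at most 2.80 in the other bulk tumors. The lung library of PBS mouse 1 had 769.7 CPM summed over 5 dissociation response genes (Fos, Jun, Egr1, Hspa1a and Dnajb1), against at most 415 in the other lungs. The tumor library of PBS mouse 3 stood apart in the class I genes themselves and is described with the values below. Throughout, a fold change is log2 with its standard error from edgeR's quasi-likelihood test, and adjusted p is by the Benjamini-Hochberg method over all genes of a fit.

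Class I transcripts differed widely in level and were highest in lymph node for most members. In PBS bulk organs the mean was highest in lymph node for H2-K1, H2-D1, Tap1, Tap2, Psmb8 and Nlrc5, in liver for B2m, in tumor for Tapbp, and in spleen for Psmb9. The lowest means were in bone marrow for H2-K1, H2-D1, B2m and Tapbp, in liver for Tap1, Tap2, Psmb8 and Psmb9, and in lung for Nlrc5. Most neighbours in these orders overlapped in range. B2m in liver did not, at 1843, 1845 and 2331 CPM in the 3 PBS livers, above every library of the next organ by mean. In BP bulk organs the mean of all 9 genes was highest in lymph node.

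**Figure D1:**
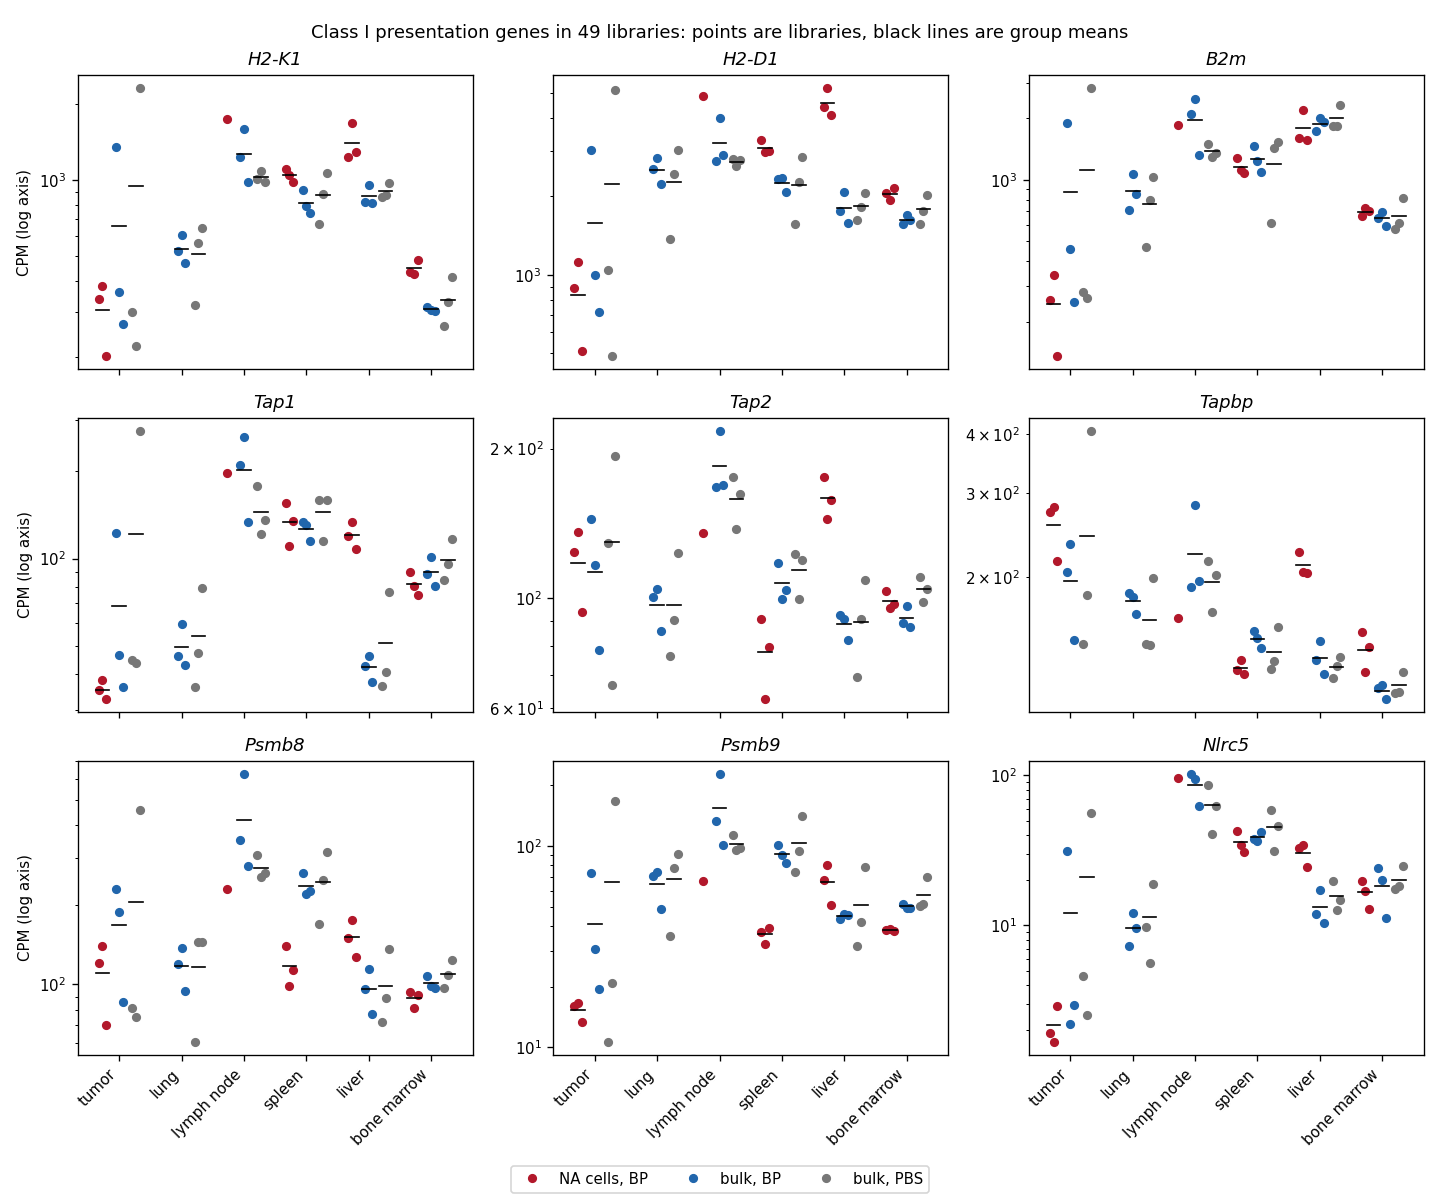
CPM (log axis) of each of the 9 genes in 49 libraries, by organ: NA cells of BP mice, bulk organ of BP mice and bulk organ of PBS mice, 1 point per library, with black lines at group means. In the liver panels the NA points lie above the BP bulk points for every gene but B2m, and in the tumor panels the top point is a PBS bulk tumor, at 2315 CPM for H2-K1.

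No class I presentation gene passed the test for BP against PBS in any whole organ. In each of the 6 organs, 0 of 9 genes passed an adjusted p of 0.05, 0 had an unadjusted p under 0.05, and DESeq2 called 0 as well. Over all genes the share called by edgeR was 0% in tumor (867 of 14535 with unadjusted p under 0.05), 0% in lung (137 of 15714), 0% in lymph node (554 of 15341), 0% in spleen (108 of 15195), 0.0235% in liver (454 of 12740) and 0% in bone marrow (184 of 13969). The ranges of BP and PBS mice overlapped in 53 of 54 gene and organ pairs, a share that was not computed over all genes. The exception was Tap2 in bone marrow, at 89.0, 96.2 and 87.5 CPM in BP mice against 110.0, 97.9 and 104.1 CPM in PBS mice, a log2 fold change of -0.20 ± 0.09 (edgeR adjusted p = 1.00).

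The lymph node was the organ with the highest median change. All 9 genes had a positive log2 fold change there, between 0.20 and 0.61 with a median of 0.46, where the median over all genes tested was -0.01. Under library totals the medians were 0.53 for the members and 0.14 over all genes. H2-K1 had 1232, 1596 and 986 CPM in lymph nodes of BP mice against 1015, 1084 and 984 CPM in those of PBS mice, a log2 fold change of 0.31 ± 0.31 (edgeR adjusted p = 0.866). Psmb8, an immunoproteasome subunit, had 351, 625 and 280.0 CPM in BP mice against 308, 255 and 263 CPM in PBS mice, with 0.61 ± 0.34 (edgeR adjusted p = 0.866). BP mouse 2 was the high library in both genes, and the groups overlapped. The median change of 16 type I interferon response genes in lymph node was 1.05 and that of 22 tested genes of the interferon gamma axis was 0.59, with 0 called in either list by edgeR and 6 and 0 at an unadjusted p under 0.05.

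Adipocyte and leukocyte markers moved with the lymph node values. All 4 adipocyte markers had negative log2 fold changes in lymph node, with a median of -1.41, and all 4 leukocyte markers positive ones, with a median of 0.40. Their part in the result was not tested, and in a whole organ fewer cells of a type and less RNA per cell cannot be told apart.

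In tumor all 9 genes had negative log2 fold changes, between -0.74 and -0.14 with a median of -0.41 (all genes -0.05), and single libraries set these values. H2-K1 had 1349, 361 and 268 CPM in tumors of BP mice against 299.9, 221 and 2315 CPM in those of PBS mice, a log2 fold change of -0.42 ± 1.04 (edgeR adjusted p = 0.936). B2m had 1906, 458 and 251 CPM in BP tumors against 281, 261 and 2817 CPM in PBS tumors (-0.26 ± 1.14, edgeR adjusted p = 0.963). BP mouse 1 and PBS mouse 3 were high in both genes and the other 4 tumors lay close together. Without PBS mouse 3 the median over the 9 genes was 1.14, without BP mouse 1 it was -1.37, and without BP mouse 2, the tumor with muscle transcripts, it was -0.19. With both left out, an alternative chosen after seeing the data, H2-K1 came to 0.29 and B2m to 0.41.

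In lung, spleen, liver and bone marrow the members' medians were -0.01, -0.11, -0.06 and -0.13, where the medians over all genes were -0.01, 0.01, 0.00 and 0.00. Without the lung of PBS mouse 1 the members' median in lung was -0.20. H2-K1 had log2 fold changes of 0.04 ± 0.29 in lung, -0.12 ± 0.24 in spleen, -0.06 ± 0.11 in liver and -0.12 ± 0.15 in bone marrow, none of which passed the test. In a fit of the 36 bulk libraries, the BP effect in each organ was set against the mean of the effects in the others, and 0 of 9 members were called in any organ. Over all genes that test called 4.06% in tumor, and 0% in each of the other 5 organs.

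**Figure D2:**
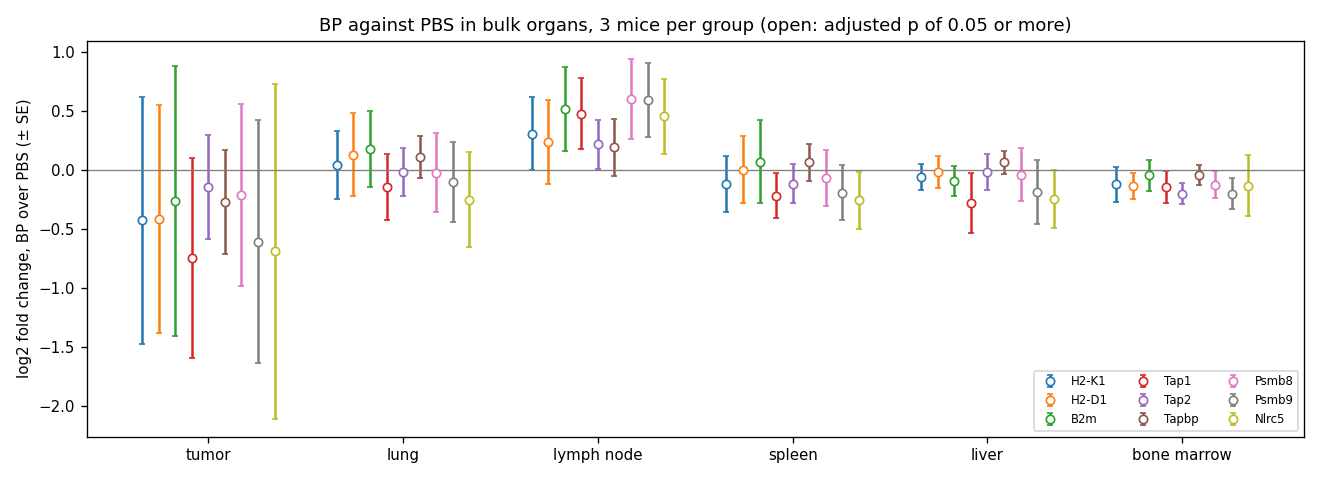
Log2 fold change of BP over PBS with its standard error for the 9 genes in 6 bulk organs, 3 mice per group. The symbols are open because no gene passed the test, the tumor bars are the widest, and the lymph node symbols all lie above 0, between 0.20 and 0.61.

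PBS mouse 3 had the highest class I levels of the 6 mice in most organs, a pattern noticed after the values were seen and given without a test. It ranked first in 38 of 54 gene and organ pairs (33 with scaling to library totals alone), BP mouse 2 in 11, PBS mouse 1 in 4 and BP mouse 1 in 1. By organ it ranked first for 9 of 9 genes in tumor, 8 in lung, 7 in spleen, 6 in liver and 8 in bone marrow, and for 0 in lymph node, while over all genes with a mean of at least 1 CPM it ranked first for 12.1 to 18.1% of genes in an organ. With library totals alone the spleen count was 3. The 9 genes vary together, so these counts are not 54 separate observations.

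The excess of PBS mouse 3 was large in the tumor and small elsewhere. The median of the 9 genes, as log2 over the median of the other 5 mice, was 2.60 in tumor, 0.35 in lung, 0.30 in spleen, 0.26 in liver, 0.39 in bone marrow and -0.14 in lymph node. Nlrc5, the transactivator of class I promoters, had 56.1 CPM in that tumor, where the other 5 bulk tumors ranged between 2.20 and 31.2 CPM. Tap1 in liver had 76.6 CPM in PBS mouse 3 and at most 46.2 CPM in the other 5 mice. Of the interferon gamma axis, 65 of 130 gene and organ pairs were highest in that mouse, and of the constitutive proteasome 16 of 48, where BP mouse 2 and PBS mouse 2 had 14 each. The type I interferon response did not share this order: BP mouse 2 was highest in 31 of 96 pairs, BP mouse 1 in 30 and PBS mouse 3 in 26. The tumor of PBS mouse 3 had 19.8 CPM of the leukocyte gene Ptprc and 1306 CPM of the epithelial gene Epcam. Their part in the pattern was not tested.

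**Figure D3:**
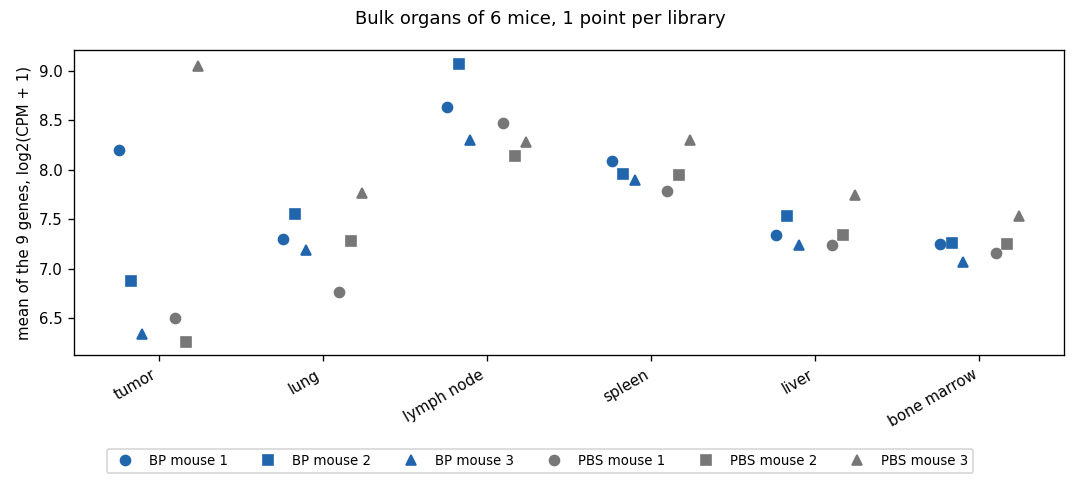
Mean of log2(CPM + 1) over the 9 genes in the bulk organs of 3 BP mice and 3 PBS mice, 1 point per library. PBS mouse 3 is the top point in tumor, lung, spleen, liver and bone marrow and not in lymph node, where BP mouse 2 is.

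Cells retained by the magnet from liver carried more class I transcripts than the whole livers of the same mice. In NA cells 8 of 9 genes were higher and 0 lower at an adjusted p of 0.05, where 37.3% of all genes were called higher and 37.5% lower. The median log2 fold change of the 9 genes was 0.86 (all genes 0.01). The ranges of NA cells and BP livers did not overlap for those 8 genes, and each call held with any 1 library left out. Scaled to library totals, 2 members were higher and 1 lower without overlap, and 6 overlapped. The share of all genes without overlap was not computed. In 1 edgeR fit of 48 libraries, in which all groups share an estimate of the spread, H2-D1, Tap1, Tap2 and Tapbp were called and H2-K1, Psmb8, Psmb9 and Nlrc5 were not (adjusted p = 0.139 to 0.359).

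Among the chains of the class I molecule, the heavy chains rose in liver NA cells and the light chain was not called. H2-D1 had 4417, 5216 and 4125 CPM in NA cells against 1759.6, 2085 and 1582 CPM in BP livers, a log2 fold change of 1.50 ± 0.22 (edgeR adjusted p = 0.000212). H2-K1 had 1230.1, 1684 and 1289 CPM in NA cells against 817, 960.2 and 812 CPM in BP livers (0.86 ± 0.19, edgeR adjusted p = 0.00259). All NA libraries of both genes lay above all BP livers. B2m had 1596, 2191 and 1574 CPM in NA cells against 1731, 2000.4 and 1914 CPM in BP livers, with overlapping ranges and 0.08 ± 0.20 (edgeR adjusted p = 0.721).

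Both subunits of the peptide transporter rose in liver NA cells. Tap1 had 119, 134 and 108 CPM in NA cells against 42.5, 46.2 and 37.6 CPM in BP livers, a log2 fold change of 1.67 ± 0.13 (edgeR adjusted p = 4.21e-06), and was the member with the largest fold change in liver. Tap2 rose by 1.00 ± 0.12 (adjusted p = 5.9e-05) and Tapbp, the tapasin gene, by 0.80 ± 0.12 (edgeR adjusted p = 0.000214). Psmb8 rose by 0.81 ± 0.17 and Psmb9 by 0.73 ± 0.16 (edgeR adjusted p = 0.00213 and 0.00273). Nlrc5 had 33.0, 34.4 and 24.5 CPM in NA cells against 11.9, 17.2 and 10.4 CPM in BP livers, a log2 fold change of 1.38 ± 0.22 (edgeR adjusted p = 0.000334).

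The liver result depended on how libraries were scaled. Mitochondrial transcripts took 48.16 to 57.15% of counts in liver NA libraries against 5.67 to 7.06% in bulk livers. With libraries scaled to their totals alone, an alternative chosen after seeing the data, the median over all genes was -0.80, with 20.2% of genes called higher and 52% lower, and the members' median was 0.00. Tap1 (0.84, adjusted p = 0.0101) and H2-D1 (0.66, adjusted p = 0.0133) rose there too in the edgeR test and B2m fell by 0.77 (adjusted p = 0.00498). The other 6 were not called, with H2-K1 at 0.00, Psmb8 at -0.03, Psmb9 at -0.10, Tapbp at -0.001, Tap2 at 0.21 and Nlrc5 at 0.56. With mitochondrial genes left out and TMM scaling kept, the 8 calls held.

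Other cell types and handling genes moved with the liver result. The summed CPM of 4 leukocyte markers was 483 to 835 in NA cells against 90.9 to 142 in BP livers, that of 4 endothelial markers 2222 to 3106 against 165 to 223, and that of 4 hepatocyte markers 19013 to 63595 against 115349 to 147429. No marker of these lists was at 0. The sum of 5 dissociation response genes, which are induced when tissue is digested, was 6886 to 8130 CPM in NA cells against 102.1 to 107.9 CPM in BP livers. The part of these in the result was not tested.

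**Figure D4:**
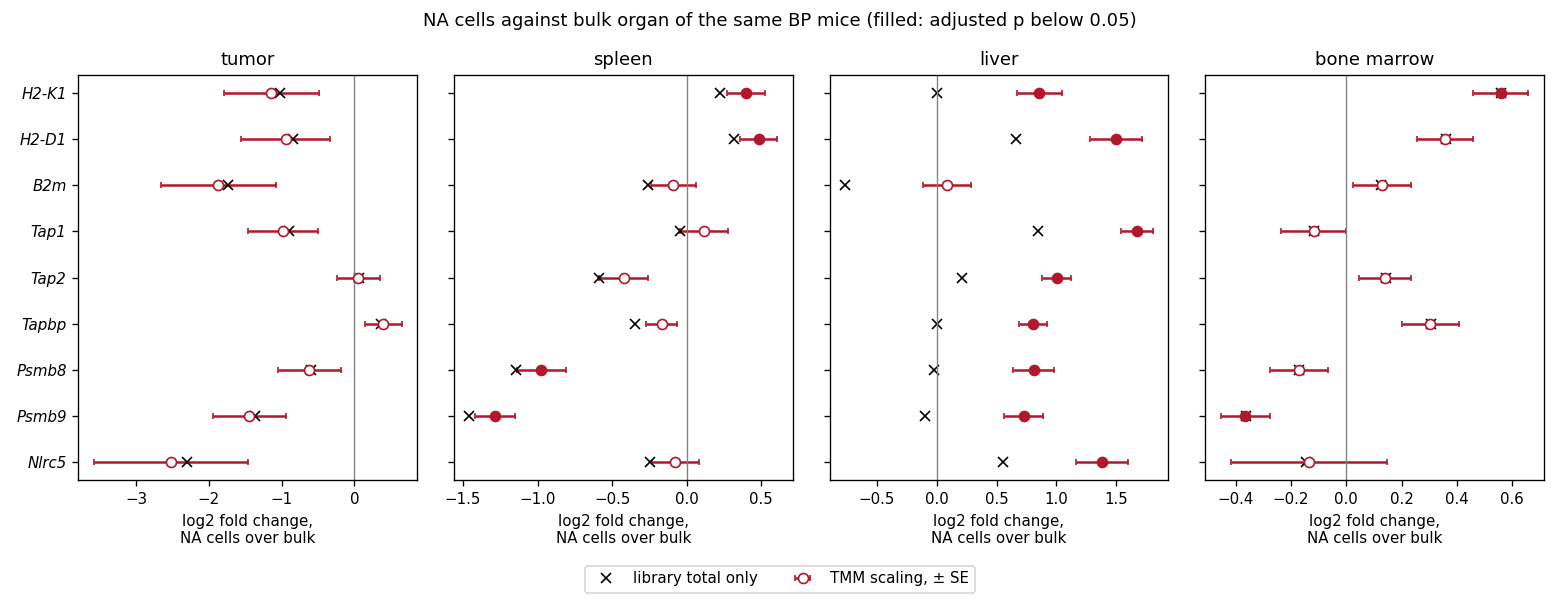
Log2 fold change of NA cells over bulk organ of BP mice for the 9 genes in 4 organs, as circles with standard error under TMM scaling (filled where the adjusted p was below 0.05) and as crosses under scaling to library totals alone; each panel has its own axis. The circles of 8 genes are filled to the right of 0 in liver, and crosses lie left of circles there, while Psmb8 and Psmb9 are filled to the left of 0 in spleen.

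In spleen 4 of 9 genes were called in NA cells, the heavy chains H2-K1 and H2-D1 higher and the immunoproteasome subunits Psmb8 and Psmb9 lower. Over all genes 42.2% were called and 20.2% were called higher, so these counts are near the background, and the members' median was -0.09 (all genes -0.04). Psmb9 had 37.6, 32.7 and 39.3 CPM in NA cells against 101.6, 90.4 and 82.5 CPM in BP spleens, a log2 fold change of -1.29 ± 0.13 (edgeR adjusted p = 0.000882). Psmb8 had 139, 98.9 and 113 CPM in NA cells against 263, 220.3 and 226 CPM in BP spleens (-0.97 ± 0.17, edgeR adjusted p = 0.00451). Every NA library was below every BP spleen in both genes, and both calls held with any 1 library left out and under scaling to library totals. Both were lost in 1 edgeR fit of 48 libraries, in which all groups share an estimate of the spread (adjusted p = 0.0938 for Psmb8 and 0.0659 for Psmb9).

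H2-K1 had 1105, 1049 and 982 CPM in spleen NA cells against 915, 787 and 739.8 CPM in BP spleens, a log2 fold change of 0.40 ± 0.13 (edgeR adjusted p = 0.0449). H2-D1 rose by 0.48 ± 0.12 (edgeR adjusted p = 0.0197). The heavy chain ranges did not overlap between fractions, yet the H2-K1 call was lost in 5 of 6 fits that left out 1 library (adjusted p up to 0.157), the H2-D1 call was lost without NA mouse 3 or without BP mouse 3 (up to 0.0834), and neither was called under library totals, where the median over all genes was -0.21, with 13.7% of genes called higher and 25.1% lower. Tap2 had 90.4, 62.6 and 79.7 CPM in NA cells against 118, 99.5 and 103.7 CPM in BP spleens, and was not called (-0.42 ± 0.16, edgeR adjusted p = 0.0781). In edgeR it was called with the mouse as a block (-0.44, adjusted p = 0.0137) and without NA mouse 1 (-0.54, adjusted p = 0.0388). B2m, Tap1, Tapbp and Nlrc5 lay between -0.17 and 0.11 and were not called. The summed CPM of 4 B cell markers was 1226 to 1580 in NA cells against 2105 to 2954 in BP spleens, and that of the dissociation genes 1059 to 3255 against 123 to 135, and the part of these in the result was not tested.

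In bone marrow 2 of 9 genes were called in NA cells, H2-K1 higher and Psmb9 lower. H2-K1 had 434, 427 and 483 CPM in NA cells against 315, 307 and 304 CPM in BP marrow, without overlap, a log2 fold change of 0.56 ± 0.10 (edgeR adjusted p = 0.0161). Psmb9 fell to 38.4, 38.6 and 38.0 CPM in NA cells, against 51.6, 49.4 and 49.3 CPM in BP marrow, also without overlap (-0.37 ± 0.09, edgeR adjusted p = 0.0475). These 2 of 9 stood against 4.80% of all genes called higher and 2.90% called lower, and the members' median was 0.13 (all genes -0.01). With 1 library left out, H2-K1 was lost in 4 of 6 fits and Psmb9 in 5 of 6. With the mouse as a block H2-D1 was called too (main fit 0.36 ± 0.10, adjusted p = 0.0684; blocked adjusted p = 0.0127), as was Tapbp (main fit 0.30 ± 0.10, adjusted p = 0.116; blocked adjusted p = 0.0428), and the count over all genes was 2719 with the block against 1044 without it in edgeR. The dissociation genes summed to 503 to 524 CPM in NA cells against 120.2 to 150.0 CPM in BP marrow. NA mouse 1 stood apart with 406 CPM summed over 4 muscle markers, against at most 29.1 in BP marrow, and both calls held without that library. The part of these in the result was not tested.

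In tumor 0 of 9 genes were called in NA cells, where 5.87% of all genes were called higher and 3.17% lower. B2m, Psmb9 and Nlrc5 had unadjusted p under 0.05 in edgeR, as did 4651 of all 14615 genes tested. Those members had log2 fold changes of -1.87 ± 0.79, -1.44 ± 0.50 and -2.52 ± 1.07 (edgeR adjusted p = 0.156, 0.103 and 0.156). DESeq2 called B2m (adjusted p = 0.0468) and Psmb9 (adjusted p = 0.0356), and it also called more genes over the whole table than edgeR, as given in the last section. Nlrc5 had 1.92, 1.68 and 2.89 CPM in NA cells against 31.2, 2.20 and 2.94 CPM in BP tumors. The tumor of BP mouse 1 alone was high, and without it Nlrc5 came to -0.25, H2-K1 to -0.04 and B2m to -0.55. Psmb9 was the 1 member whose ranges did not overlap, at 16.1, 16.7 and 13.3 CPM in NA cells against 73.2, 30.9 and 19.5 CPM in BP tumors. The count of genes called over the table was 625 with the mouse as a block and 1321 without it. The members' median was -0.98 (all genes -0.03). Epithelial markers summed to 7599 to 9560 CPM in NA cells against 1810.1 to 4502 CPM in BP tumors, and leukocyte markers to 40.9 to 42.5 against 101.4 to 126.3 CPM. The dissociation genes summed to 2095 to 2686 CPM in NA cells against 167 to 249 CPM in BP tumors. The part of these in the values was not tested.

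The 1 lymph node NA library, from BP mouse 2, had no replicate. It held 1744 CPM of H2-K1, 4888 of H2-D1, 1858 of B2m, 198 of Tap1, 135 of Tap2, 164 of Tapbp, 230.4 of Psmb8, 66.7 of Psmb9 and 96.3 of Nlrc5. In the bulk lymph nodes of the 3 BP mice H2-K1 ranged between 986 and 1596 CPM and Psmb9 between 100.9 and 228 CPM, so that the library lay above the bulk nodes in H2-K1 and H2-D1 and below them in Tap2, Tapbp, Psmb8 and Psmb9.

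The NA effect differed between organs for most members. In a fit of 24 BP libraries the NA effect in each organ was set against the mean of the effects in the other 3. In liver 7 of 9 members were higher than in the others (all but H2-K1 and B2m), where 29.4% of all genes were; Tap1 differed by 1.90 ± 0.34 on the log2 scale (edgeR adjusted p = 8.78e-05) and Psmb9 by 1.65 ± 0.34 (adjusted p = 0.000389). With a mouse left out 5 or 6 members were called in liver, and 2 under library totals. In tumor 6 of 9 were lower than in the other organs, where 15.4% of all genes were, but 0 were called without BP mouse 1. With each organ of each mouse as a block, Nlrc5 was not called (edgeR adjusted p = 0.0544). That block paired NA and bulk libraries within an organ, and the organs of 1 mouse still counted as independent. Leaving out a mouse here removed its libraries from all 4 organs at once. In spleen Tap2 (-0.78 ± 0.22, edgeR adjusted p = 0.0161), Tapbp and Psmb8 were lower, where 8.63% of all genes were, with 0 or 1 called when a mouse was left out and 0 under library totals. In bone marrow 0 of 9 were called in either direction, with 0 at an unadjusted p under 0.05, where 15.0% of all genes were called.

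The exchange of proteasome subunits was read as the ratio of an immunoproteasome subunit to the constitutive subunit it replaces, per coding length, which does not depend on how a library is scaled. In liver the ratio of Psmb8 to Psmb5 was 4.60 ± 0.12 in NA cells against 1.09 ± 0.22 in BP livers (SD, n = 3 each). Psmb9 to Psmb6 was 0.910 ± 0.074 in NA cells against 0.260 ± 0.015 in BP livers, and Psmb10 to Psmb7 was 1.09 ± 0.16 against 0.488 ± 0.038. In liver the NA ratios were thus higher for all 3 pairs, with no overlap. Both terms enter a ratio: Psmb10 itself was not called in liver NA cells, and the constitutive genes were lower there, as given below. The part of cell types in these ratios was not tested. Spleen went the other way: Psmb8 to Psmb5 was 2.64 ± 0.51 in NA cells against 4.54 ± 0.42 in BP spleens, Psmb9 to Psmb6 0.463 ± 0.062 against 1.18 ± 0.11, and Psmb10 to Psmb7 0.335 ± 0.126 against 0.854 ± 0.223, again with no overlap. With 3 libraries against 3, a two-sided exact permutation test cannot give a p below 0.1, so none is given.

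In bone marrow Psmb9 to Psmb6 was 0.484 ± 0.084 in NA cells against 0.727 ± 0.008 in BP marrow, without overlap, while Psmb8 to Psmb5 was 1.74 ± 0.44 against 1.997 ± 0.382 with overlap. In tumor Psmb9 to Psmb6 was 0.0948 to 0.122 in NA cells against 0.150 to 0.569 in BP tumors, and Psmb8 to Psmb5 1.51 to 1.65 against 1.303 to 3.34. In bulk organs Psmb8 to Psmb5 was high in lymph node, at 6.50 ± 1.50 in BP mice and 5.27 ± 1.84 in PBS mice, and low in liver, at 1.09 ± 0.22 in BP mice and 1.15 ± 0.24 in PBS mice. The 8 constitutive proteasome genes fell together in liver NA cells, 8 of 8 called lower with a median of -1.07, where 37.5% of all genes were called lower. Among them were Psmb5 at -1.28 ± 0.14 (edgeR adjusted p = 2.74e-05) and Psmb6 at -1.10 ± 0.14 (edgeR adjusted p = 7.07e-05). Short transcripts moved in the same direction: genes with transcripts under 1 kb had a median of -0.48 in liver NA cells and those over 4 kb 0.34. The part of transcript length was not tested.

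**Figure D5:**
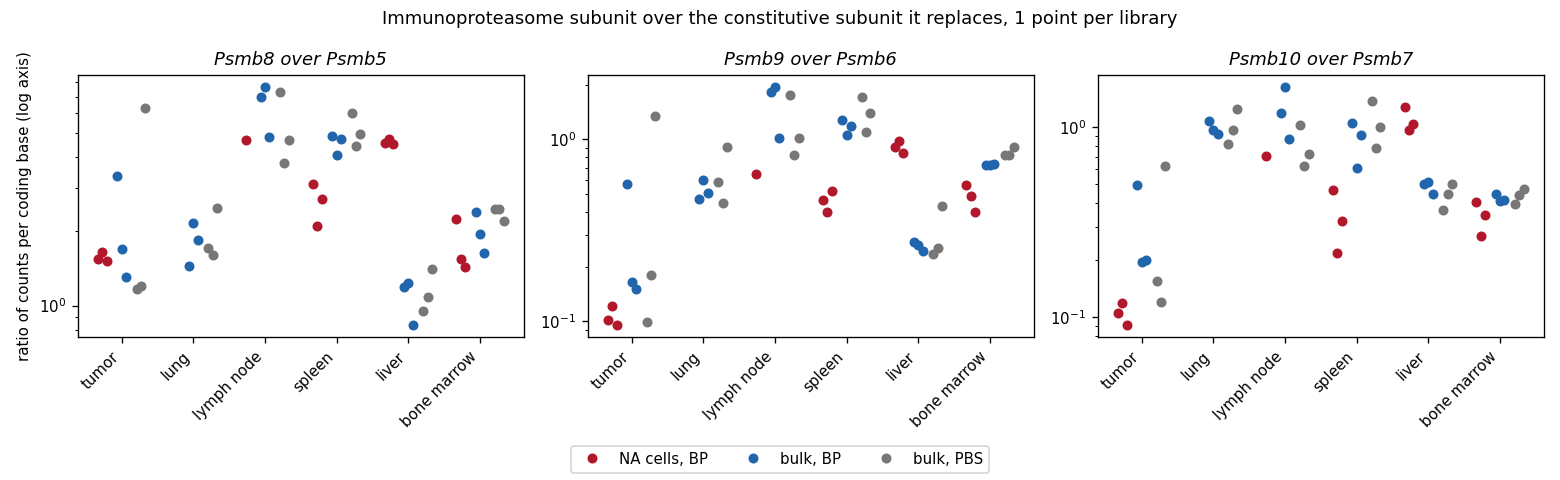
Ratio of counts per coding base (log axis) of Psmb8 over Psmb5, Psmb9 over Psmb6 and Psmb10 over Psmb7 by organ, in NA cells of BP mice, bulk organs of BP mice and bulk organs of PBS mice, 1 point per library. NA points lie above both bulk groups in liver for all 3 ratios and below both in spleen, where Psmb8 over Psmb5 was 2.64 on average in NA cells and 4.54 in BP spleens.

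In BP mice, heavy chains were also more abundant relative to the light chain in NA cells than in bulk organs. The sum of H2-K1 and H2-D1 over B2m, per coding length, was 1.03 to 1.16 in liver NA cells against 0.409 to 0.497 in BP livers, 1.13 to 1.20 in spleen NA cells against 0.729 to 0.849 in BP spleens, and 1.44 to 1.70 in tumor NA cells against 0.748 to 1.29 in BP tumors, and 1.07 to 1.24 in bone marrow NA cells against 0.938 to 1.06 in BP marrow. The NA and BP bulk ranges did not overlap in any of these organs. Some PBS bulk libraries lay within the NA ranges, at 1.57 in the tumor and 1.19 in the spleen of PBS mouse 1 and 1.11 in the marrow of PBS mouse 2. PBS livers did not, at 0.424 to 0.479. How often ratios of other genes separate the fractions was not computed. B2m is the shortest coding sequence of the 9 at 357 bases, and short transcripts had negative medians in NA cells of tumor, spleen and liver (-0.58, -0.45 and -0.48 under 1 kb), whose part was not tested. H2-D1 exceeded H2-K1 per coding length in every group, on average 5.38 times in BP marrow, 4.86 times in BP lung and 2.13 times in BP liver. Tap1 over Psmb9, a pair with facing starts, was 1.02 to 1.25 in spleen NA cells against 0.400 to 0.438 in BP spleens, and 0.504 to 0.643 in liver NA cells against 0.252 to 0.304 in BP livers.

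Related genes gave the surroundings of these values. Of 23 genes of the interferon gamma axis, 17 were higher and 0 lower in liver NA cells with a median of 1.64, 9 higher and 3 lower in spleen, 4 higher and 0 lower in bone marrow, and of 22 tested in tumor 0 were higher and 2 lower (Irf8 and Ciita). Over all genes 37.3% were called higher and 37.5% lower in liver, and 20.2% were called higher and 42.2% in either direction in spleen. In bone marrow 4.80% were called higher, and in tumor 3.17% lower. Under library totals 12 of the list were higher and 5 lower in liver, where 20.2% of all genes were called higher and 52% lower. With that scaling 7 were higher and 5 lower in spleen, where 13.7% of all genes were called higher and 25.1% lower. Irf1, an interferon-induced activator of class I promoters, had 476, 457 and 516 CPM in liver NA cells against 90.5, 92.6 and 69.3 CPM in BP livers, a log2 fold change of 2.68 ± 0.16 (edgeR adjusted p = 8.66e-07). Irf1 rose by 1.37 ± 0.22 in spleen NA cells (edgeR adjusted p = 0.00376), where Psmb8 and Psmb9 fell. Ifng, the gene of interferon gamma itself, had 22.2, 164 and 59.7 CPM in liver NA cells against 0.127, 0.265 and 0 CPM in BP livers, which is at or near the floor. It was also higher without overlap in spleen NA cells, at 3.53, 4.70 and 7.00 against 1.42, 0.366 and 0.691 CPM in BP spleens. Bone marrow NA cells had 1.71, 2.81 and 1.74 against 0.0822, 0.538 and 0 CPM in BP marrow. Tumor NA cells had 0.213, 0 and 0.321 against 0.511, 0 and 0 CPM in BP tumors.

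Of 20 other class I presentation genes, 4 were higher in liver NA cells, which were the class Ib genes H2-Q4, H2-Q6 and H2-Q7 and the formyl peptide presenter H2-M3, and 7 were lower, where 37.3% of all genes were called higher and 37.5% lower, so neither count is above the background. H2-Q6 rose by 3.47 ± 0.23 (edgeR adjusted p = 1.29e-06). In spleen 4 were higher and 8 lower, where 42.2% of all genes were called. In bone marrow 2 were higher and 1 lower, where 4.80% of all genes were called higher and 2.90% lower. In tumor 0 were called, with 7 at an unadjusted p under 0.05 in edgeR, as were 4651 of all 14615 genes tested. Psmb10, the third inducible subunit, fell by 1.46 in spleen NA cells (edgeR adjusted p = 0.00213), had -0.04 in liver (0.811) and -1.44 in tumor (0.0515). In the type I interferon response 12 of 16 were higher in liver and 1 higher and 4 lower in spleen. All 12 genes of CD8 T cells and of receptors that read class I were higher in liver NA cells, with a median of 3.20, and 1 was higher and 6 lower in spleen. Under library totals 20.2% of all genes were called higher and 52% lower in liver. There the other class I genes were 4 higher and 14 lower, and the type I interferon response 6 higher and 3 lower. The CD8 and receptor genes were 11 higher and 0 lower with that scaling, and the constitutive proteasome genes again 8 of 8 lower. In BP against PBS edgeR called 0 genes of any of these lists.

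Among the 6 genes whose levels most resembled the mean of the 9, of 11188 ranked over 49 libraries, were Ifi47 (Pearson r = 0.890), H2-Q7 (0.881), Tgtp2 (0.857), Gbp4 (0.855) and Gbp9 (0.855). Once group means were subtracted, over the 48 libraries of groups with replicates, they were H2-T10 (r = 0.975), H2-Q7 (0.944), Gbp8 (0.927), H2-Q4 (0.926), H2-M3 (0.917) and H2-Q6 (0.917). These libraries share mice, organs and fractions, the heavy chains share sequence with the H2-Q and H2-T genes, and the 2 tumors with high levels carry much of the within-group spread, so the values are descriptions.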

How the data were processed

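Mouse organs were profiled by RNA-seq in 49 libraries. The authors deposited RSEM expected counts per gene, made with RSEM 1.3.1 per the column type of the deposited table and the submitters' processing notes, which also name FastQC 0.11.9, cutadapt 3.5, STAR 2.7.9a and mm10. Of the deposited estimated counts 4.64 to 7.92% were not whole, and all were rounded. Gene symbols and positions for 55141 and 55227 of 55487 genes came from GENCODE M21, and 0 columns were left unused. Replicates of a group differed by more than counting noise (lowest chi-square per degree of freedom 8.436).

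Genes were filtered with edgeR's filterByExpr (minimum count 10), scaled with TMM, and tested with edgeR 4.0.16's quasi-likelihood test (R 4.3.3) with Benjamini-Hochberg adjustment at 0.05 over all genes tested. Comparisons were BP against PBS in 6 organs, NA against BP bulk in 4 organs, and the difference of each organ's effect from the mean of the others. Fits were checked on simulated counts. DESeq2 1.42.0, other size factors, no filter, a replicate block, mitochondrial genes left out, 1 fit of 48 libraries and leaving out each library were alternatives. In the fits of effects by organ, each mouse was left out in place of each library. NA and BP bulk libraries with the same number come from the same mouse per the labels, so the block pairs them; in tumor the deviations of same-numbered libraries correlated between -0.04 and 0.288, in spleen between -0.128 and 0.458, in liver between 0.0074 and 0.0564 and in bone marrow between -0.0614 and 0.215.

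The 9 genes and the related and marker lists were chosen with earlier results of these data known. All 9 genes are named in every comparison, from other lists at most 4 called and 2 uncalled genes, and the 6 genes most like the members' mean in each of 2 rankings; where more were named (Irf1, Ifng, markers of libraries that stood apart), this was after their values were seen. One gene of the related lists is not reported here by name. Ratios between genes used coding lengths. The labels do not say that organs came from independent litters or batches, so p-values measure the spread between these mice.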

Additional observations from a re-analysis of the deposited data

Results flagged for a closer look

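The NA effect on 16 gene and organ pairs differed from the mean NA effect in the other 3 organs, by the test of that difference in edgeR. In tumor the log2 differences were -1.71 for H2-K1, -1.69 for H2-D1, -1.87 for B2m, -1.51 for Tap1, -1.11 for Psmb9 and -2.84 for Nlrc5. In spleen they were -0.78 for Tap2, -0.62 for Tapbp and -0.94 for Psmb8. In liver they were 1.43 for H2-D1, 1.90 for Tap1, 0.99 for Tap2, 0.54 for Tapbp, 1.2997 for Psmb8, 1.65 for Psmb9 and 2.17 for Nlrc5. Over all genes that test called 15.4% lower in tumor, 8.63% lower in spleen and 29.4% higher in liver. In tumor 0 were called when BP mouse 1 was left out, which removed its NA and bulk libraries from all 4 organs at once. With a mouse left out, 0 to 1 members were called in spleen and 5 to 6 in liver. Scaling to library totals left 0 in spleen and fewer in liver. No group held 4 or more samples, so no single library could be tested as an outlier within its group.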

How the results depend on the processing

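Scaling to library totals alone and leaving out both high tumors were chosen after seeing the data; the cause of each shift below was not tested. Under BP against PBS, 0 of 9 members were called in any organ under every alternative run. Genes called over the table were 182 with DESeq2 and 1482 in 1 fit of 48 libraries in tumor (0 in the main fit), 12 and 1 in lymph node, 34 with DESeq2 and 49 without a filter in liver, and 3 and 27 in bone marrow. H2-K1 and B2m in tumor came to 0.29 and 0.41 with both high tumors left out, and H2-K1 in liver to 0.0041 under library totals. BP and PBS libraries with the same number come from different mice, and their deviations correlated between -0.184 and 0.367; with a replicate block H2-K1 and B2m in tumor came to 0.17 and 0.35, and the BP effect in tumor against other organs called 327 genes (488 under library totals, 756 in the main fit).

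For NA against BP bulk, members called in tumor were 2 with DESeq2 and 3 in the fit of 48 libraries (genes 3183 and 5770, and 800 under library totals, 625 with the replicate block). In spleen they were 2 under library totals and 0 in the fit of 48, in liver 3 and 4, and in bone marrow 1 without a filter, 1 under library totals, 4 with the block and 0 in the fit of 48 (genes 2719 with the block and 373 in the fit of 48). Under library totals Tap1 in spleen came to -0.0475, and in liver B2m to -0.77, Tapbp to -0.001, Psmb8 to -0.0267 and Psmb9 to -0.10; B2m in liver came to -0.0424 without a filter and -0.0665 in the fit of 48. For the NA effect by organ, library totals left 0 members in spleen (1826 genes) and 2 in liver, with Tapbp at -0.12, and no filter gave 1699 genes in bone marrow. With each organ of each mouse as a block, the NA effect on Nlrc5 in tumor against the other organs was no longer called (-1.94, edgeR adjusted p = 0.0544). Over the single-gene results followed, DESeq2 added 3 calls and removed 1, and the fits without a filter removed 4. Other size factors in edgeR removed 1, and leaving out mitochondrial genes removed 1. Some of these changes are given beside the results, and the rest are not named by gene.

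With 1 library left out, log2 values ranged as follows for BP against PBS: in tumor H2-K1 -1.57 to 1.38 and B2m -1.63 to 1.73; in lung H2-K1 -0.20 to 0.23 and B2m -0.0775 to 0.44; in spleen H2-K1 -0.27 to 0.0432 and B2m -0.24 to 0.29; in liver B2m -0.15 to 0.0325; in bone marrow H2-K1 -0.27 to 0.0584 and B2m -0.14 to 0.12. Genes called ranged over 0 to 1 in lung, 1 to 9 in liver and 0 to 1 in bone marrow. For NA against BP bulk they were Tap2 in tumor -0.14 to 0.27, in spleen B2m -0.18 to 0.011, Tap1 -0.0033 to 0.25 and Nlrc5 -0.21 to 0.0313, B2m in liver -0.10 to 0.18 and Nlrc5 in bone marrow -0.39 to 0.12. Members called ranged over 0 to 1 in tumor (genes 20 to 1935), 2 to 4 in spleen and 0 to 3 in bone marrow (genes 289 to 1899). The lowest tumor counts of NA against BP bulk came without a library of mouse 1 or 2. For effects by organ, a whole mouse was left out, with all its libraries in the fit. Genes then ranged over 36 to 1686 for BP in tumor and 0 to 342 in lymph node. For NA, members ranged over 0 to 6 in tumor and 0 to 1 in spleen. Genes for NA ranged over 1656 to 2421 in tumor, 588 to 1470 in spleen and 161 to 1263 in bone marrow. With 3 mice a group and BP tumors that differ 5-fold among themselves, standard errors near 1 on the log2 scale limit what could be detected in tumor.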
